A study of Homo sapiens with 8 samples.

Results

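The 9 genes that carry retinoids into the cell, store them, convert them and hold them in the cytosol were followed in the accessible chromatin of U-937 cells, a human leukaemia line of monocytic type. The genes are STRA6, RDH10, ALDH1A1, ALDH1A2, ALDH1A3, DHRS3, LRAT, CRABP1 and CRABP2, which are 9 of the 20033 protein-coding genes of the annotation. They were chosen by their place in the pathway and not by a measured value, although earlier results of these data were known. For each gene, every accessible region that overlapped the gene body or the 50 kb on either side of it was taken. This gave 222 regions, out of 161291 in the union of all lists.

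The assay was ATAC-seq, in which a transposase inserts sequencing adapters into accessible DNA. Cells of 1 line received DMSO, all-trans retinoic acid (ATRA) at 0.1 µM, Corin at 0.1 µM, or ATRA and Corin together at 0.1 µM each, for 24 h. Corin is a compound that inhibits both enzymes of the CoREST complex, its histone deacetylase and its lysine demethylase. The labels give 0.1 µM for the DMSO group as well. There were 8 samples, 2 per group, and the authors deposited 1 peak list per group, so no spread between samples can be given. No test was possible, and every difference below is a difference between 4 lists. The labels do not say whether the samples of a group were separate cultures.

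Retinol circulates bound to a carrier protein and enters cells through the membrane receptor STRA6. Inside the cell it is either esterified for storage or oxidised to retinal and then to retinoic acid, the ligand of the nuclear retinoic acid receptors, while reductases return retinal to retinol. Cellular binding proteins carry retinoic acid to the nucleus or to the enzymes that degrade it. Several genes of this system are themselves targets of the receptors, so that retinoic acid feeds back on its own supply.

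DHRS3 encodes a reductase that turns retinal back into retinol. The pileup is the count stacked at the summit of a region, of fragments or of read ends, which the labels do not tell apart. It was chosen as a measure after its values were seen. By the pileup, 7 of the 10 DHRS3 regions shared by DMSO and ATRA were past 1.5-fold higher with ATRA relative to the median (18.3% of all regions). By column 7, the authors' fold of a peak over local background, 1 of the 10 was higher (16.6% of all regions) and 4 were lower (8.8%). At its downstream start the pileup was 300 with DMSO, 434 with Corin, 1234 with ATRA and 1617 with the combination. A region in the extended ALDH1A2 body went from a pileup of 66 with DMSO to 728 with ATRA and 567 with the combination, and was at 31 with Corin. A region downstream of CRABP1 had pileups of 198, 707, 109 and 461 in the DMSO, ATRA, Corin and combination lists. At the regions of ALDH1A2 and CRABP1, column 7 too was higher with ATRA and with the combination than with DMSO. RDH10 kept a strong promoter in all 4 lists, while LRAT had no region at a transcription start in any of them.

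The DMSO, ATRA, Corin and combination lists had 222491, 222110, 189896 and 197548 peaks, which merged into 116563, 113914, 101851 and 94917 regions. How deeply each sample was sequenced is unknown. The median of column 7 over regions was 5.05, 7.61, 5.03 and 6.04 in the same order. The pileup and the background under it were solved from column 7 and the p of each peak. In each list, 99.97% to 99.98% of the peaks gave a pileup within 0.05 of a whole number. The most frequent background was 12.8, 9.12, 13.1 and 13.9 in the same order, so column 7 starts from a lower base in the ATRA list. Ratios to DMSO were therefore divided by the median ratio over all regions that 2 lists share. That median was 1.26 for column 7 and 1.07 for the pileup with ATRA, 0.943 and 0.913 with Corin, and 1.02 and 1.12 with the combination. Of 12 myeloid and monocytic marker genes, 9 or 10 had a region at a start in each list. Of the T-lymphoid markers 1 of 4 had one in every list, and of the erythroid markers 0 or 1 of 4. The remaining markers did not separate in the same way, since 3 of 4 B-lymphoid and 2 or 3 of 4 epithelial markers also had one.

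**Figure D1:**
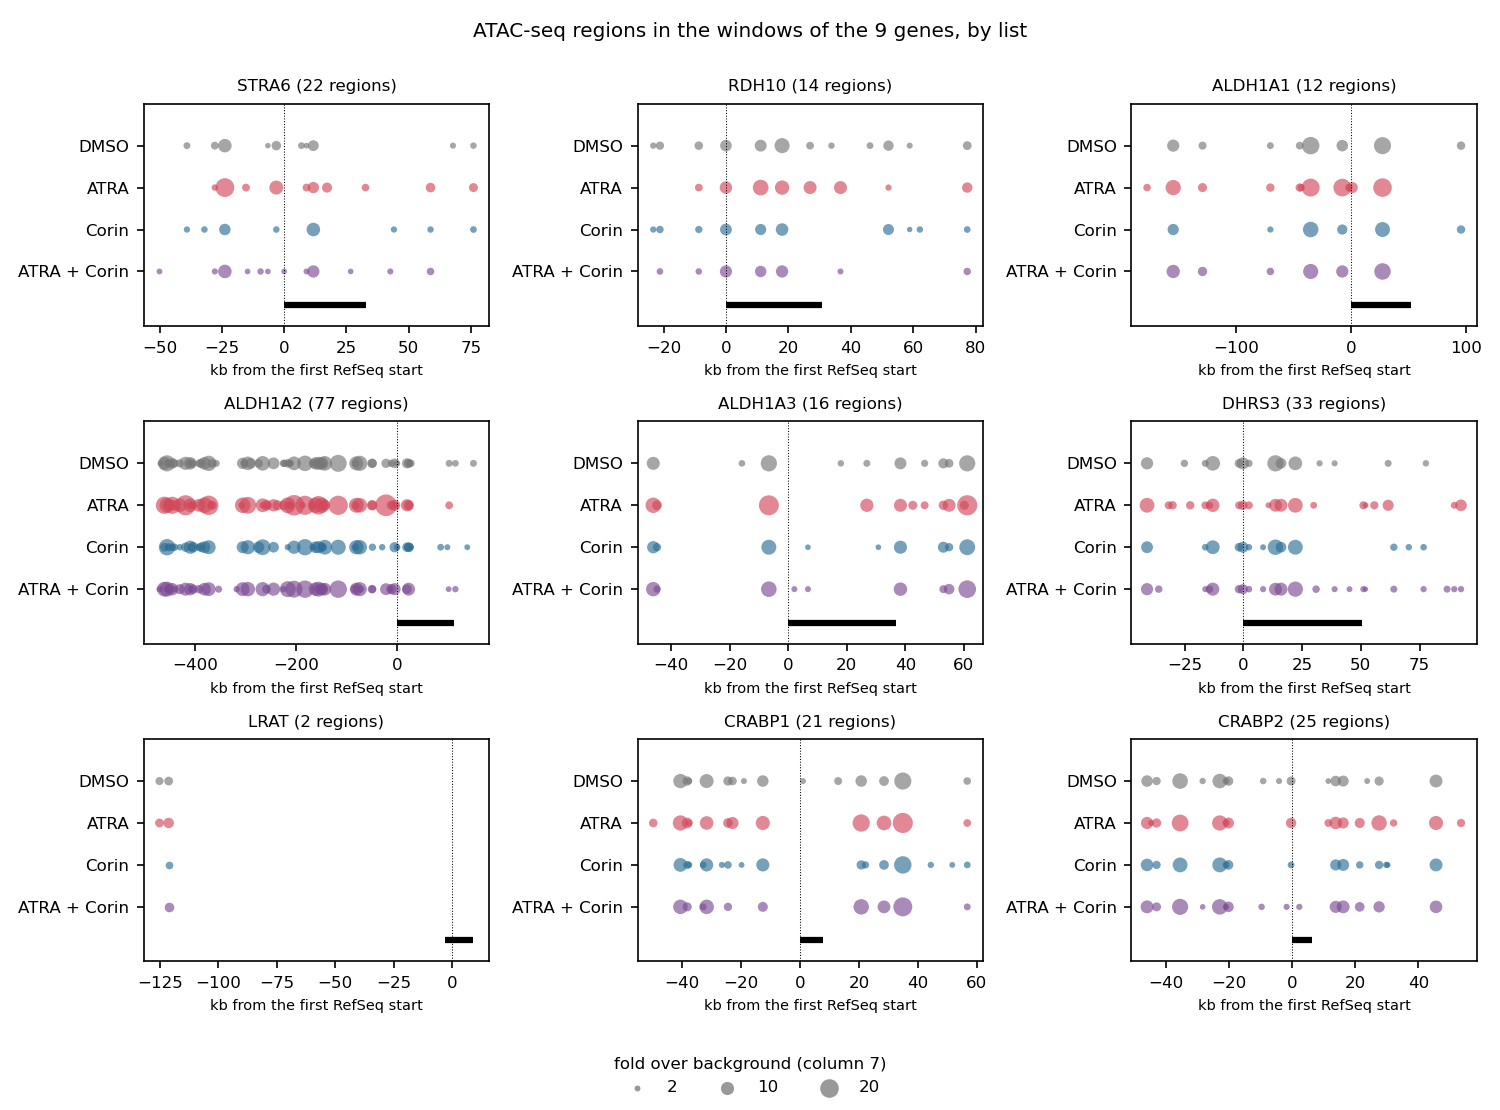
Regions in the windows of the 9 genes, by list. Each dot is a region, placed in kb from the first RefSeq start along the direction of transcription, its size follows column 7, and the black bar is the RefSeq gene body. DHRS3 and CRABP2 are densely covered, and the 2 regions of LRAT lie far from its gene body.

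The regions were unevenly spread over the 9 loci. CRABP2 had 23.5 regions per 100 kb of window, DHRS3 22, CRABP1 19.5, STRA6 16.6, ALDH1A2 11.9, ALDH1A3 11.5, RDH10 10.7, ALDH1A1 4.29 and LRAT 0.884. Of the 222 regions, 109 were intronic, 53 intergenic, 50 within 1 kb of a transcription start of any gene, and 10 exonic. In the windows, 150 regions were listed with DMSO, 152 with ATRA, 127 with Corin and 130 with the combination. These are regions of each list, of which 1 of the 222 merged regions can hold several. All 4 lists shared 80 of the 222 (36.0%), against 41.1% of all regions. Of the 142 others, 130 ranked in the weaker 50% of every list that held them, where presence or absence depends most on the threshold of the caller.

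Regions that the ATRA list held and the DMSO list lacked were 39 of 152 (25.7%, 95% Wilson interval 19.4 to 33.1), against 23.1% over the whole list. In the other direction, 37 of 150 (24.7%, 18.5 to 32.1) were missing, against 25.3%. With Corin, 24 of 127 were absent from DMSO (18.9%, 13.0 to 26.6), against 17.7%, and 47 of the 150 DMSO regions were absent from Corin (31.3%, 24.5 to 39.1), against 28.5%. These 4 shares were near those of all regions. The Corin share absent from DMSO depended on the windows, at 8.82% (4.11 to 17.9) with 10 kb in place of 50 kb and 27.0% (18.8 to 37.0) with RefSeq gene bodies. The intervals cover counting error over regions only.

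With all peaks and all 9 windows, the combination stood further from the whole list. Of its 130 regions, 37 were absent from DMSO (28.5%, 21.4 to 36.7), against 16.7% of all its regions. Absent from ATRA were 32 (24.6%, 18.0 to 32.7), against 15.5%, and absent from Corin were 39 (30.0%, 22.8 to 38.4), against 20.6%. Of the DMSO regions, 52 of 150 were missing from the combination (34.7%, 27.5 to 42.6), against 31.5%. The shares of ATRA regions and of Corin regions missing from the combination were 30.9% and 24.4%, against 28.4% and 25.0%. Regions listed with the combination alone numbered 21 (9.46%, against 3.93% of all), with 7 at ALDH1A2, 6 at STRA6, 4 at DHRS3, 3 at CRABP2 and 1 at ALDH1A3. They were weak, with column 7 of at most 3.60. Without the DHRS3 window, the shares of the combination absent from DMSO, ATRA and Corin were 22.2% (15.4 to 30.9), 22.2% (15.4 to 30.9) and 26.9% (19.4 to 35.9). With peaks of −log10 q of at least 5 they were 18.9% (12.6 to 27.4), 13.2% (8.03 to 21.0) and 20.8% (14.1 to 29.4), against 13.2%, 9.06% and 17.8% of all regions. In both cases every interval covers the share of all regions, while each share stayed above it. Without the ALDH1A2 window the 3 shares were 34.9% (25.6 to 45.7), 27.7% (19.2 to 38.2) and 31.3% (22.4 to 41.9). Which windows or peaks carry the contrast was not tested.

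**Figure D2:**
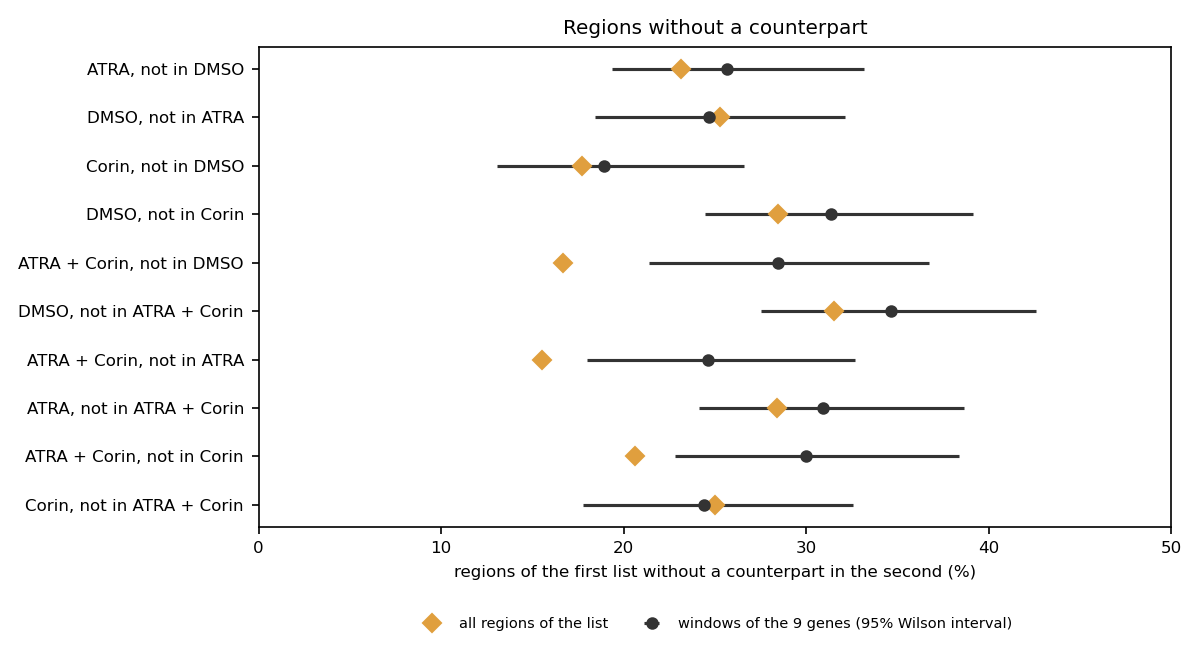
Share of the regions of 1 list that have no counterpart in another, in percent. Dots with bars are the windows of the 9 genes with 95% Wilson intervals, and diamonds are all regions of the list. The intervals of the windows lie above the diamond for the combination against DMSO (28.5% and 16.7%), ATRA (24.6% and 15.5%) and Corin (30.0% and 20.6%). Without DHRS3 these 3 intervals cover the diamonds, as they cover the share of all regions with the stricter limit on q.

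Column 7 was past 1.5-fold of the median ratio with ATRA in 20 of 107 shared regions upwards (18.7%, all regions 16.6%) and in 9 downwards (8.41%, all regions 8.8%). With Corin it was higher in 4 of 97 (4.12%, all 6.34%) and lower in 11 (11.3%, all 10.8%). With the combination 8 of 93 were higher (8.60%, all 8.26%) and 8 lower (8.60%, all 12.1%). These shares were near those of all regions. By the recovered pileup the windows stood further apart. With ATRA 28 of 107 regions were higher (26.2%, all 18.3%) and 14 lower (13.1%, all 16.4%). Of the 28, 14 lay in the ALDH1A2 window, which has 44 of the 107 regions, and 7 at DHRS3, which has 10. No other window held more than 2 of them. Of the 14 at ALDH1A2, only chr15:58087613-58088534 lies in the window of the RefSeq gene body. The others lie beyond it and enter through the longer GENCODE body. The 28 include 1 region of ALDH1A2 whose deposited p and column 7 contradict each other. With the combination 21 of 93 were higher (22.6%, all 12.5%) and 11 lower (11.8%, all 19.4%), and with Corin 7 of 97 were higher (7.22%, all 10.2%) and 15 lower (15.5%, all 13.9%). Of the 21, 12 lay in the ALDH1A2 window and 5 at DHRS3. Most of the 12 also lie beyond the window of the RefSeq body. The comparisons with DMSO share the DMSO list.

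**Figure D3:**
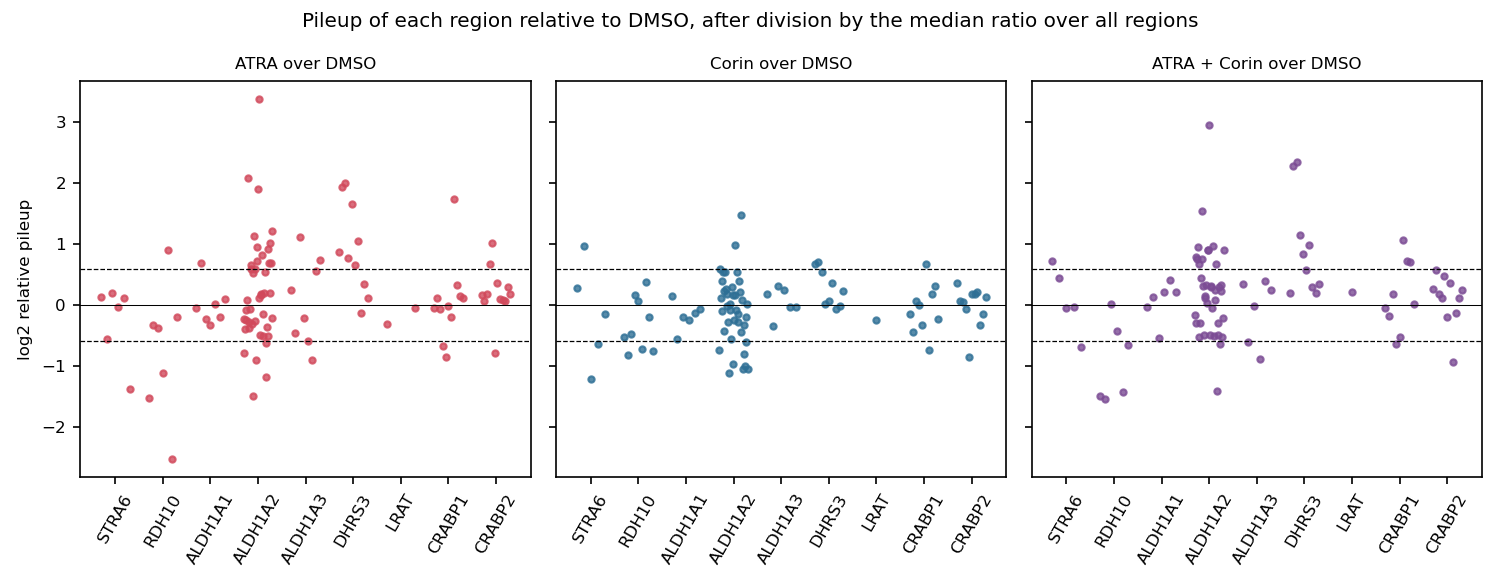
Pileup at the summit of each region relative to DMSO, on a log2 scale, after division by the median ratio over all regions. Each point is a region of the gene named below it, and dashed lines mark 1.5-fold. With ATRA 7 of 10 DHRS3 regions lie above the upper line and none below the lower one, and RDH10 has 3 of 7 below the lower line.

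With DMSO, 7 of the 9 genes had a region within 1 kb of an annotated start, as had 6 with ATRA, 4 with Corin and 4 with the combination. Over all protein-coding genes the shares were 71.4%, 69.1%, 69.7% and 69.1%. Counted at RefSeq starts only, the numbers were 6, 5, 4 and 3. DHRS3 and RDH10 had a region at a RefSeq start in all 4 lists, and ALDH1A2 had one in all 4 at a GENCODE start far from its RefSeq start. Those of the other genes were missing from at least 1 list.

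**Figure D4:**
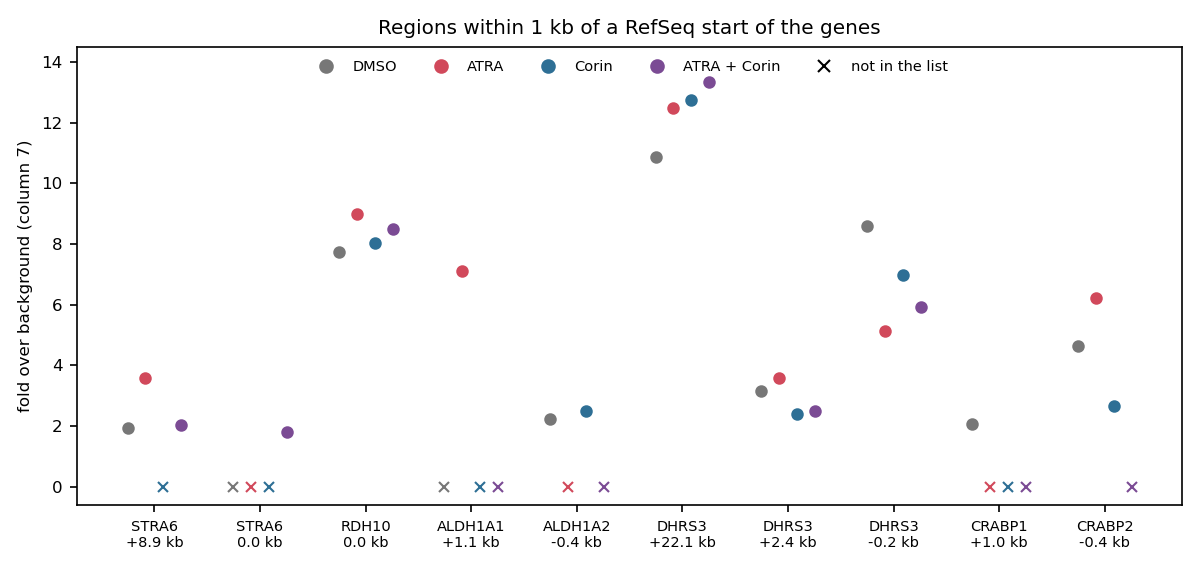
Column 7 of the regions within 1 kb of a RefSeq start, with a cross where a list holds no such region. The number under each gene is the distance in kb from its first RefSeq start to the summit. RDH10 and the 3 regions of DHRS3 are present in all 4 lists, and the other regions lack at least 1 list.

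STRA6, the receptor through which retinol enters the cell, lies at chr15:74179466-74212267 on the minus strand (hg38). At an internal start, the region chr15:74202570-74203422 had column 7 of 1.94 with DMSO, 3.59 with ATRA and 2.05 with the combination, and was not listed with Corin. At the first start, chr15:74212131-74212535 was listed with the combination alone, at 1.82. Both regions were weak, and the first one also overlaps a start of CCDC33. An intronic region, chr15:74200225-74201153, had pileups of 231 with DMSO, 169 with ATRA, 414 with Corin and 424 with the combination. Both lists with Corin were higher there, by 1.96-fold with Corin and 1.64-fold with the combination relative to the median, and ATRA was at 0.682. Upstream, chr15:74215078-74215815 went the other way, with column 7 of 5.23 with DMSO, 11.3 with ATRA and 2.48 with Corin, and no peak with the combination. Its pileup was 114, 120 and 45, so that ATRA differed from DMSO in column 7 more than in pileup. Of the 22 regions at STRA6 only 2 were in all 4 lists, and chr15:74240001-74240445 had a log2 relative column 7 of -0.73 with the combination.

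RDH10, the dehydrogenase that oxidises retinol to retinal, had a start region whose pileup was the highest of the members' start regions in the DMSO, Corin and combination lists. The region chr8:73293527-73295698 had pileups of 1763 with DMSO, 1517 with ATRA, 1815 with Corin and 1989 with the combination. All 4 lists were close there, with relative folds of 0.802, 1.13 and 1.01 for ATRA, Corin and the combination. In the ATRA list the far GENCODE start of ALDH1A2 was slightly higher than that of RDH10, at 1537. By column 7 RDH10 was at 7.75, 8.98, 8.03 and 8.49 for DMSO, ATRA, Corin and the combination, below the strongest start regions of ALDH1A2 and DHRS3 in every list. In the gene body, chr8:73311365-73312853 had 567 with DMSO, 282 with ATRA, 313 with Corin and 236 with the combination, with relative folds of 0.463, 0.604 and 0.373. Upstream, chr8:73285239-73286653 had 94, 35, 62 and 36 in the same order. DMSO was the highest of the 4 lists at both. Downstream, chr8:73346233-73346959 had 117 with DMSO, 22 with ATRA and 139 with Corin, so ATRA was low and Corin was not. The region was not listed with the combination, which has no pileup there. Over the regions shared with DMSO, the median log2 relative column 7 at RDH10 was -0.12 with ATRA, -0.21 with Corin and -0.56 with the combination. By pileup the log2 medians lay lower, at -0.38, -0.47 and -1.04 in the same order. These are relative folds of 0.768 with ATRA, 0.722 with Corin and 0.488 with the combination. On the scale of the most frequent background, which moves the median of all regions by 0.59 (log2) with ATRA, the RDH10 median with ATRA was 1.16, above 1. With Corin and the combination it was 0.643 and 0.50. At an alternative start near the 3' end, chr8:73321190-73321901 had column 7 of 3.51 with DMSO and 9.79 with ATRA and was missing from both lists with Corin. Downstream of the gene, chr8:73330993-73331776 was listed with ATRA at a pileup of 105 and with the combination at 30, and with neither DMSO nor Corin.

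ALDH1A1, ALDH1A2 and ALDH1A3 are the retinal dehydrogenases that make retinoic acid. ALDH1A1 had a region near its RefSeq start, chr9:72951766-72952083, with ATRA alone, at column 7 of 7.12 and a pileup of 71. Its window held 5 regions found in all 4 lists. The nearest of them to the start, chr9:72960197-72960746, had pileups of 105 with DMSO, 182 with ATRA, 84 with Corin and 129 with the combination. ATRA was the highest list there, at 1.62-fold relative to the median. ALDH1A3 had no region at its RefSeq start. At an internal start, chr15:100897353-100897918 was listed with DMSO alone, at 2.41. An intronic region, chr15:100906516-100906814, had column 7 of 2.84 with DMSO and 10.2 with ATRA and was missing from both lists with Corin.

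ALDH1A2 needs care with the annotation. The GENCODE body spans 544 kb, chr15:57953424-58497866, whereas the RefSeq body spans 112 kb and ends at 58065711, so the longer model runs past AQP9 and into LIPC. Of the 77 regions in its window, 20 lie in the RefSeq window. At the RefSeq start, chr15:58066006-58066529 was listed with DMSO at column 7 of 2.25 and with Corin at 2.50, and with neither ATRA nor the combination. The start of the RefSeq transcript thus had a weak region in 2 lists and none in the other two. At the far GENCODE start, chr15:58330674-58332901 was strong in all lists, with column 7 of 12.3 with DMSO, 10.9 with ATRA, 14.4 with Corin and 11.7 with the combination. Of the other 6 start regions of GENCODE transcripts, chr15:58139666-58140533 and chr15:58474775-58476397 had column 7 of 8.64 to 13.4 in the 4 lists, and chr15:58472987-58473686 had 5.09, 3.31, 3.62 and 2.48. The region chr15:58038562-58039164 was in the DMSO and Corin lists at 3.28 and 1.78, and chr15:57963977-57964241 and chr15:58137778-58138260 were in the combination list alone.

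Upstream of the RefSeq start by 22.4 kb, chr15:58087613-58088534 had pileups of 68 with DMSO, 307 with ATRA (95% Poisson interval 274 to 343) and 121 with the combination, and was not listed with Corin. Column 7 was 5.0, 26.9 and 8.17. ATRA stood well above the other lists on both measures, at 4.21-fold relative to the median, which is above 99.4% of all shared regions, while the combination was at 1.59. Farther out, chr15:58281885-58282796 had pileups of 66 with DMSO (51 to 84), 728 with ATRA (676 to 783), 31 with Corin (21.1 to 44) and 567 with the combination (521 to 616). Both lists with ATRA were many times above both without it, and the Poisson intervals, which cover counting error only, did not overlap. The relative fold was 10.3 with ATRA, 0.514 with Corin and 7.69 with the combination. It is intronic in the GENCODE body of ALDH1A2 and outside the RefSeq window.

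Most other named regions of the ALDH1A2 window lie beyond the RefSeq body. Of these, 2 were high with ATRA and low with Corin. At chr15:58526214-58527179 the pileup was 322 with DMSO, 802 with ATRA, 143 with Corin and 669 with the combination. At chr15:58484541-58485372 it was 235, 477, 104 and 215, and the combination was close to DMSO. The region chr15:58469991-58470360 differed from these, with 95 with DMSO, 66 with ATRA, 242 with Corin and 169 with the combination, so both lists with Corin were the high ones. At chr15:58209094-58209813 ATRA was the low list, with 112 against 291 with DMSO, 302 with Corin and 231 with the combination. The region chr15:58355154-58356311 was listed with DMSO alone, at column 7 of 6.42, and chr15:58339893-58340504 and chr15:58454281-58454815 were in the DMSO and Corin lists alone. In the RefSeq body, chr15:58042793-58043976 had column 7 of 4.74, 6.59, 5.08 and 9.62, and just upstream of it chr15:58077336-58077967 had 3.12 with DMSO, 4.84 with ATRA and 6.16 with the combination. The combination was the highest list at both. For chr15:58277805-58278023 the p and column 7 of the ATRA peak contradict each other, and no pileup is given.

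DHRS3, the reductase that returns retinal to retinol and so limits retinoic acid, lies at chr1:12567910-12618210 on the minus strand. Its 33 regions made it one of the most densely covered loci, with 14 listed with DMSO, 13 with Corin, 21 with ATRA and 22 with the combination. The lists with ATRA held more regions than those without it. Counted over the 33 merged regions, 11 of the 21 with ATRA were absent from DMSO (all ATRA regions 23.1%), 4 of the 13 with Corin (17.7%) and 12 of the 22 with the combination (16.7%). The shares in brackets are counted over the regions of each list, not over merged regions. Many of the regions absent from DMSO were weak, with pileups of 38 to 239 with ATRA, 28 to 53 with Corin and 36 to 376 with the combination. Of the 14 with DMSO, 4 were missing with ATRA (all DMSO regions 25.3%), 5 with Corin (28.5%) and 4 with the combination (31.5%).

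The 3 RefSeq starts of DHRS3 each had a region in every list. At the downstream one, chr1:12595637-12596848, the pileup was 300 with DMSO (95% Poisson interval 267 to 336), 1234 with ATRA (1166 to 1305), 434 with Corin (394 to 477) and 1617 with the combination (1539 to 1698). By unscaled pileup the lists stand in the order DMSO, Corin, ATRA and combination, and no 2 intervals overlap. The intervals do not cover differences in depth between lists. The relative folds were 3.83 with ATRA, 1.58 with Corin and 4.83 with the combination, which are above 99.2%, 91.7% and 99.8% of all shared regions. On the scale of the most frequent background they were 5.77, 1.41 and 4.95, so there ATRA stood above the combination. At the middle start, chr1:12615346-12616806, the pileup was 239, 808, 222 and 476 for DMSO, ATRA, Corin and the combination. Here ATRA was the highest list and Corin was at the DMSO level. At the first start, chr1:12617692-12619677, it was 681, 1155, 654 and 1129. The 2 lists with ATRA were close to each other and above the 2 without it, with relative folds of 1.58 and 1.48.

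Of 4 intronic regions between the downstream and middle starts, 2 were in all lists, and both were higher with ATRA and the combination than with DMSO and Corin. At chr1:12601835-12602466 the pileup was 225 with DMSO (197 to 256), 968 with ATRA (908 to 1031), 334 with Corin (299 to 372) and 1266 with the combination (1197 to 1338). Relative folds were 4.01, 1.63 and 5.04. At chr1:12604157-12604765 it was 508, 931, 675 and 1250, with folds of 1.71, 1.45 and 2.20. By unscaled pileup and by relative fold, the combination was the highest list and DMSO the lowest at both. On the scale of the most frequent background, ATRA stood above the combination at both. The other two were weaker, with chr1:12607398-12607582 listed with ATRA alone at 136, and chr1:12609414-12609937 with Corin at 28 and the combination at 108. Just upstream of the first start, chr1:12619874-12620860 had 342, 758, 402 and 753. Farther upstream the lists were closer together, with 826, 806, 724 and 1127 at chr1:12630614-12631974 and 118, 137, 127 and 168 at chr1:12658667-12659467. Between them, chr1:12632231-12632783 was listed with ATRA at 239 and with the combination at 376, and with neither DMSO nor Corin. Of the DHRS3 regions shared with DMSO, 7 of 10 were past 1.5-fold with ATRA, 2 of 9 with Corin and 5 of 10 with the combination, and none was lower in any of the 3. Against the share of all regions (18.3%, 10.2% and 12.5%), the counts with ATRA and the combination were high.

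Column 7 did not show this difference at every region. At the downstream start it was 10.9 with DMSO, 12.5 with ATRA, 12.7 with Corin and 13.4 with the combination. The background under the peak was 26.7, 97.8, 33.1 and 120 in the same order, so the divisor was 3.66 times DMSO with ATRA and 4.50 times with the combination. At chr1:12601835-12602466 the background was 33.0, 99.8, 49.5 and 129 in that order. There, with ATRA and with the combination, the pileup stood further above DMSO than the background did. Column 7 of the strongest peak was thus above DMSO in both, before division by the median ratio. By column 7, 1 of 10 DHRS3 regions was past 1.5-fold upwards with ATRA and 4 downwards, and at the first start column 7 was lower with ATRA, at 5.12 against 8.59. At some DHRS3 regions the direction thus depends on which of the 2 measures is read. On the recovered pileup the median relative fold over its shared regions was 1.77 with ATRA, 1.18 with Corin and 1.63 with the combination, and on the scale of the most frequent background it was 2.66, 1.05 and 1.67.

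**Figure D5:**
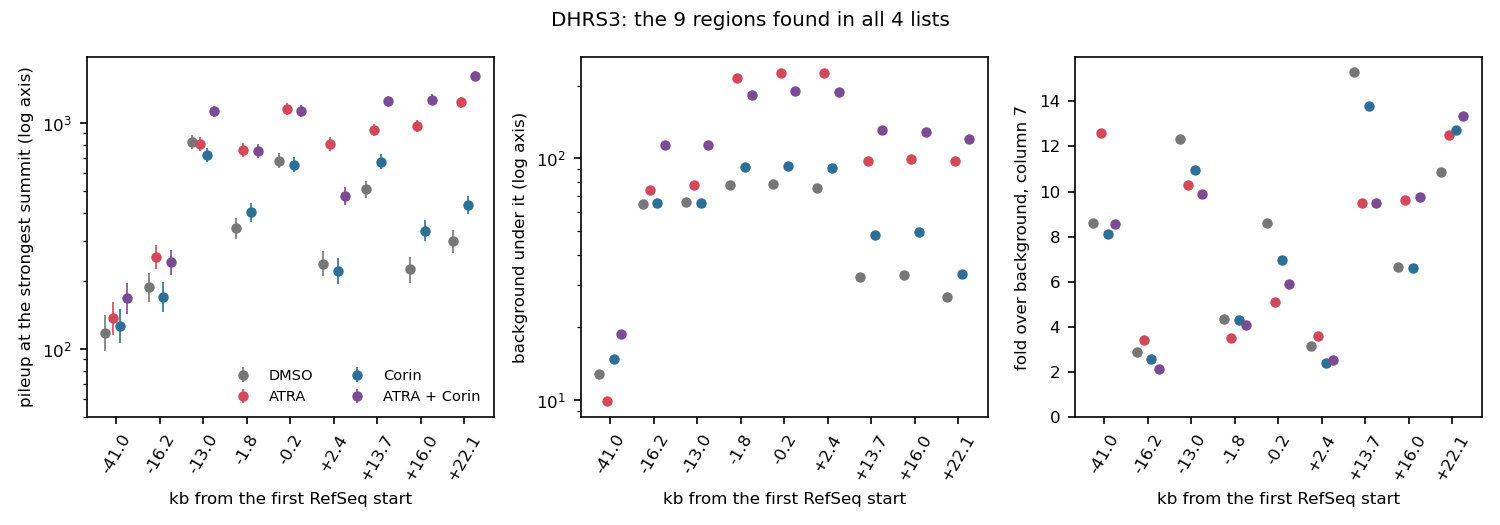
The 9 DHRS3 regions present in all 4 lists, by distance in kb from the first RefSeq start. Left, pileup at the summit with 95% Poisson intervals (log axis). Middle, background under it (log axis). Right, column 7. Between -1.8 and +22.1 kb, pileup and background are both higher with ATRA and the combination than with DMSO. Column 7 does not separate the lists in that way at every region.

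Direct repeats of the retinoid receptor hexamer were searched on both strands, with spacers of 5, 2 and 1 bases (DR5, DR2 and DR1). In the 200 bp around the summits, DR5 matched in 2 of the 222 regions (0.901%), both at DHRS3, against 0.0905% of all 161291 regions. DR2 matched in 1 (0.450%, all 0.170%) and DR1 in none (all 0.0719%). The PU.1 motif GAGGAAGT matched in 15 (6.76%, all 6.73%) and the AP-1 motif TGANTCA in 29 (13.1%, all 12.2%), both near the share of all regions. The first 4 sequences are shown because they hold the only 4 repeat matches anywhere in the 222 regions, and the last because its region was the one with the highest relative column 7 with ATRA. They are given on the plus strand of hg38, with the match in capitals. In the first 4 only the repeat is in capitals. The DHRS3 intron window also holds an AP-1 match at chr1:12604526-12604532, left in lower case.
DHRS3 at the downstream start, chr1:12595976-12596004: cgccgcTGACCTGTGGCTGAACCcggagc
DHRS3 intron, chr1:12604511-12604710: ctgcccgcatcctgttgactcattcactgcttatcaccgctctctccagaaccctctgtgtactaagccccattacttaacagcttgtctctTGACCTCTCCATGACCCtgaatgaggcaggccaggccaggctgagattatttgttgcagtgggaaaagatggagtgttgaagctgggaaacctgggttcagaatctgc
ALDH1A2 far region, chr15:58282388-58282587: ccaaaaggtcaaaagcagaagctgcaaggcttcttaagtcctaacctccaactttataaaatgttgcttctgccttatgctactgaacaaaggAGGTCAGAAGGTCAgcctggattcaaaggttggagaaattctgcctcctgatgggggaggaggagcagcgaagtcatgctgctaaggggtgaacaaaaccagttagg
CRABP2 start, chr1:156705934-156706133: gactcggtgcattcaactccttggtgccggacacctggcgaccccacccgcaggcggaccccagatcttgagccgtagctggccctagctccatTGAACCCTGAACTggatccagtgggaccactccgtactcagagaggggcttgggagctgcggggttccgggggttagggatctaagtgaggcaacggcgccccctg
ALDH1A2 upstream region, chr15:58087976-58088175: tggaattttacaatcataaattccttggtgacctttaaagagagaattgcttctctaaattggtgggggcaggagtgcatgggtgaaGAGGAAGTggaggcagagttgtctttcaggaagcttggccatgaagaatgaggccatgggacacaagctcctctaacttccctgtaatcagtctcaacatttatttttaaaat
The first 2 are DR5 matches, the next is a DR2 match and the fourth a DR1 match, while the last is the summit of the upstream ALDH1A2 region, whose capitals mark a PU.1 match. The first DHRS3 match crosses the end of an exon that holds 5' untranslated sequence of the transcript from the last DHRS3 start, with 13 of its 17 bases in the exon, and the second lies in an intron. Among regions of similar width, 0.430%, 0.246%, 2.03% and 0.254% hold the motif of the first 4 sequences, in the order shown. A match is a description of letters, and binding there was not measured.

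LRAT, the acyltransferase that esterifies retinol for storage, was almost bare. Its window held 2 regions, chr4:154618799-154619008 with column 7 of 3.77 with DMSO and 4.45 with ATRA only, and chr4:154622637-154622954 with 4.49, 6.33, 3.40 and 5.36 in the DMSO, ATRA, Corin and combination lists. Neither is at a start of LRAT, and both lie outside the window of its RefSeq body.

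CRABP1 and CRABP2 bind retinoic acid in the cytosol. CRABP1 had a region near its start, chr15:78341051-78341416, with DMSO alone, at column 7 of 2.08 and a pileup of 37. Its most variable shared region lay 20.7 kb from the start, past the 3' end of the gene. There, chr15:78360569-78361673 had pileups of 198 with DMSO (171 to 228), 707 with ATRA (656 to 761), 109 with Corin (89.5 to 131) and 461 with the combination (420 to 505). The lists stand in the order Corin, DMSO, combination and ATRA, with no overlap of the Poisson intervals. The relative folds were 3.33 with ATRA, 0.603 with Corin and 2.08 with the combination, and column 7 gave the same order, with 7.66, 17.2, 5.03 and 13.8 for DMSO, ATRA, Corin and the combination. The region chr15:78317101-78317508 was listed with DMSO and ATRA alone, and chr15:78302561-78302950 was missing from the combination.

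CRABP2, which delivers retinoic acid to the receptors, had a start region that was missing from 1 list. At chr1:156705715-156706297, which holds the DR1 match printed above, the pileup was 187 with DMSO (161 to 216), 116 with ATRA (95.9 to 139) and 95 with Corin (76.9 to 116), and the combination list held no peak. DMSO was the highest list. Column 7 was 4.64, 6.22 and 2.67, so ATRA was above DMSO on that measure and below it by pileup, with a relative fold of 0.578. Within the window, chr1:156694214-156694472 had 198 with DMSO and 430 with ATRA and was missing from both lists with Corin. The other regions that all lists share in this window, 10 in number, mostly lie at starts of neighbouring genes such as ISG20L2, PRCC, MRPL24 and HDGF, and their relative pileups were between 0.800 and 1.58.

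Of the members with a start region in all lists, ALDH1A2 had the widest span of log2 relative column 7, 0.82, at its far GENCODE start. Over the 3 ratios to DMSO, the genes whose own start region lay nearest to it, of 13139 compared, were ENSG00000273398 at a distance of 0.0351, and DNTTIP1 and WFDC3, which share a region, at 0.0472. Within 0.25 of it lay 730 genes.

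Of 40 other genes of retinoid handling, 39 were in the annotation. A start region was listed for 20 with DMSO, 22 with ATRA, 22 with Corin and 20 with the combination, against 71.4%, 69.1%, 69.7% and 69.1% of all protein-coding genes, and 14 had none in any list. For 18 genes the strongest start region was in all 4 lists. Past 1.5-fold of the median ratio, column 7 was higher in 0 and lower in 2 of 19 with ATRA (all regions 16.6% and 8.8%), higher in 1 and lower in 1 of 20 with Corin (6.34% and 10.8%), and higher in 0 and lower in 1 of 18 with the combination (8.26% and 12.1%). LRP2, the endocytic receptor that takes up retinol with its carrier, had column 7 of 13.5 with DMSO, 20.8 with ATRA, 4.88 with Corin and 8.10 with the combination. DHRS9, a dehydrogenase of retinol, had 11.4, 6.07, 15.0 and 10.6, and BCO2, which cleaves carotenoids, had 6.24, 3.55, 9.27 and 9.48. ATRA was thus the lowest list at DHRS9 and BCO2 and the highest at LRP2. Start regions missing from at least 1 list belonged to ADH4, AKR1C3, ALDH8A1, LIPE, LPL, RBP7 and RPE65. ADH4, an alcohol dehydrogenase that can oxidise retinol, had 8.40 with ATRA and 4.28 with the combination, and AKR1C3, an aldo-keto reductase, had 5.73 and 3.28. Neither was listed with DMSO or with Corin. RPE65, the retinoid isomerase, was listed with ATRA alone at 6.13. LIPE, which hydrolyses stored esters, was listed with all but the combination at 2.86, 3.81 and 2.13. RBP7, a retinol-binding protein, and LPL, a lipase, were listed with Corin alone at 2.69 and 2.55, and ALDH8A1 with DMSO and Corin at 2.84 and 2.44.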

How the data were processed

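The 8 ATAC-seq samples of U-937 cells form 4 groups of 2, by the treatment that the labels name. Each group has 1 deposited narrowPeak list made from both samples. Per the submitters' processing notes, the tools were cutadapt, Bowtie2, SAMtools, Picard and MACS2 and the build hg38, with no versions or settings given. Column 7, deposited by the authors, is a fold over local background, the deposited p and q columns are −log10 values, and column 5, the authors' display score, was not used. There were 0 further per-sample columns. All peak ends lay inside the hg38 chromosomes.

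Peaks of the same list that overlapped became 1 region, on the 22 autosomes and the sex chromosomes, and a counterpart needed an overlap of at least 1 bp. A region took the highest column 7 of its peaks. Gene bodies and starts came from GENCODE release 44, and RefSeq starts and gene bodies (GRCh38.p14) stand beside them. Pileup and background were solved from 2 equations, with p as the upper Poisson tail beyond the observed pileup and column 7 as the ratio of pileup plus 1 to background plus 1. This left 63, 51, 43 and 68 contradicting peaks in the DMSO, ATRA, Corin and combination lists. Ratios are to DMSO, divided by the median over all shared regions, with 1.5-fold as the limit. Shares have 95% Wilson intervals and pileups exact 95% Poisson intervals, which cover counting error only. PCR copies are not independent molecules, and neither are read ends of the same fragment. No test was run. The scripts, in Python 3.11.15 with numpy 2.4.6, pandas 2.3.3, scipy 1.17.1 and matplotlib 3.10.9, were tested on simulated data, and overlap counts equalled those of bedtools 2.31.1 in 10 of 10 comparisons.

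The members and lists were chosen with earlier results of these data known. The named regions were those within 1 kb of a GENCODE start of a member, those missing from a list and ranking in the stronger 50% of another by p, the strongest such region of each member, and the 3 highest and 3 lowest relative column 7 ratios of each treatment. Nearest patterns were the 3 genes with the smallest Euclidean distance over the 3 log2 ratios. Other regions, and the pileup as a measure, were chosen after their values were seen. For RDH10 no RefSeq promoter entry matched, and its RefSeq gene start was used.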

Additional observations from a re-analysis of the deposited data

How the results depend on the processing

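No paired analysis was possible because each group has 1 list made from both samples, and for the same reason no sample could be left out. Of 212 values under alternatives, 185 stayed within the interval (counts: within 1.5-fold) of the reported one, and 27 moved. RefSeq bodies and starts, the pileup and its scaling, and leaving out ALDH1A2 or DHRS3 were added after seeing the data. With −log10 q of at least 5, the shares absent from DMSO were 9.62% for Corin (all regions 11.2%) and 18.9% for the combination (13.2%), the shares of the combination absent from ATRA and Corin 13.2% and 20.8% (9.06% and 17.8%), and the share of Corin absent from the combination 14.4% (17.2%). With lists of equal length, ATRA regions absent from DMSO were 18.2% (all regions 18.0%) and from the combination 19.8% (19.0%), DMSO regions absent from Corin 23.2% (19.7%) and from the combination 26.4% (20.8%), and 4 members had a start region with DMSO. With windows of 10 kb, Corin regions absent from DMSO were 8.82% (all regions 17.7%) and from the combination 17.6% (25.0%), and with RefSeq bodies Corin regions absent from DMSO were 27.0% (17.7%). With 2-fold as the limit, column 7 was higher in 8.41% and lower in 3.74% with ATRA (all regions 7.02% and 2.37%), 1.03% and 1.03% with Corin (1.78% and 2.84%), and 1.08% and 1.08% with the combination (2.23% and 4.36%). Without division by the median, 35.5% were higher with ATRA (all regions 31.9%). Without ALDH1A2, 5.26% (3 of 57) were lower with Corin (all regions 10.8%) and 3.70% (2 of 54) higher with the combination (8.26%). By pileup, 22.6% were higher with the combination (all regions 12.5%). By pileup over the most frequent background, 56.1% were higher and 3.74% lower with ATRA (all regions 50.5% and 4.34%), 22.7% lower with Corin (20.7%) and 24.7% higher with the combination (13.8%). For the other shifts the cause was not tested. With unknown depth, a missing weak region is not evidence of closed chromatin.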
